A study of Mus musculus with 8 samples.

Results

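The genes described here encode subunits of the transcription factor AP-1 and close relatives: Jun, Junb and Jund, Fos, Fosb and Fosl2, Atf3, Batf and Batf3, and Maff. They were read in a table of H3K27ac, an acetylation of histone H3 found at active promoters and enhancers, in microglial nuclei. Members were the rows of that table whose gene name was one of the 10 symbols. This gave 304 of 129304 regions of 800 bp, and 10 of 18707 gene symbols. H3K27ac was compared between WT C57BL/6 mice and GrnKO mice of the same strain, which lack a functional Grn, the gene of the lysosomal and secreted protein progranulin. All mice were 2 years old. Nuclei of frozen half-brains were fixed and sorted as PU.1+, OLIG2- and NEUN-, a gate that takes myeloid nuclei and leaves out oligodendrocyte and neuronal nuclei. Each genotype had 2 replicates, each a pool of nuclei from 2 mice, with an H3K27ac library and an input library (chromatin sequenced without immunoprecipitation) for every pool. The labels give the genotype as GrnKO and do not describe the allele. Since all values come from bulk pools, fewer cells of a type and less acetylation per cell cannot be told apart.

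AP-1 is a dimer of basic leucine zipper proteins. JUN proteins pair with each other or with FOS proteins, BATF proteins and ATF3, and MAFF is a small MAF protein that has no activation domain of its own. Many of these genes are immediate early genes, which are transcribed within minutes of a stimulus without new protein synthesis, and MAP kinases control both their transcription and the activity of their products. In microglia and other macrophages AP-1 binds enhancers beside the lineage factor PU.1 and is known for its part in responses to inflammatory signals. H3K27ac reports on the state of the regulatory regions near these genes, not on their RNA or protein.

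The H3K27ac libraries held 15491643 to 20030832 tags and the inputs 4078179 to 14415969. Tags within listed regions made up 49.4% of WT replicate 1 and 63.3% to 65.7% of the other 3 H3K27ac libraries, so WT replicate 1 stood apart. At the Grn start site the region centred 13 bp upstream held 357 and 300.1 normalised tags in WT and 0 in both GrnKO libraries, where a count of 0 allows up to 3 tags (1.83 and 1.498 scaled tags). The genotype labels thus hold at the targeted gene. Normalised tags are tags per 10000000 after scaling by trimmed means (TMM), and all log2 changes are GrnKO against WT on the log2(normalised tags + 1) scale, which understates changes of low regions. A region or gene was called when its limma p, adjusted by the Benjamini-Hochberg method over all regions or genes tested, was under 0.05. Without TMM the median log2 change of all regions moved from -0.0020 to 0.22, so changes are stated relative to the TMM centre. The p-values measure the spread between these 4 pools only, and the allowance for a count of 0 covers counting error only.

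Jun and Batf3 held 13 of the 15 called AP-1 regions. Of the 304 member regions, 194 (63.8%) passed the filter on low values, against 62.4% of all regions. Of these 194, 15 were called, 9 higher and 6 lower in GrnKO. The called share was 7.73% (4.64% higher and 3.09% lower), against 9.71% of all 80728 tested regions (6.8% higher and 2.92% lower), a share under that of the table as a whole. All 7 called regions of Jun were higher and all 6 of Batf3 were lower. Atf3 and Fosl2 had 1 called region each, both higher. Among the 118 tested regions of the other 8 members these 2 were the only calls. Both GrnKO values lay above both WT values in 60 member regions (30.9%, against 27% of all tested regions) and below them in 43 (22.2%, against 25.6%). The median log2 change was 0.04 over the 194 member regions and -0.0020 over all. The called regions included 3 of the 26 tested regions within 1000 bp of a start site and 12 of the 168 tested regions farther away.

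The number of calls depended on which pools entered. Without WT replicate 1, 24 member regions were called (12.4%, against 16.04% of all tested regions), 8 in Jun, 7 in Batf3, 3 each in Fos and Maff, 2 in Atf3 and 1 in Fosl2, and without WT replicate 2, 34 (17.5%, against 17.8%), 17 in Jun, 6 each in Batf3 and Fos, 2 each in Atf3 and Fosl2 and 1 in Junb. Without GrnKO replicate 1, 2 were called, both in Jun (1.03%, against 1.67% of all), and without GrnKO replicate 2, 8 (4.12%, against 2.33%). In each of these 4 fits the lone pool was assumed to vary like the other genotype. On the whole reads recovered from the table, edgeR called 13 member regions (6.7%, against 8.58% of all) and DESeq2 14 (7.22%, against 9.43%), all of them in Jun, Batf3, Atf3 and Fosl2.

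**Figure D1:**
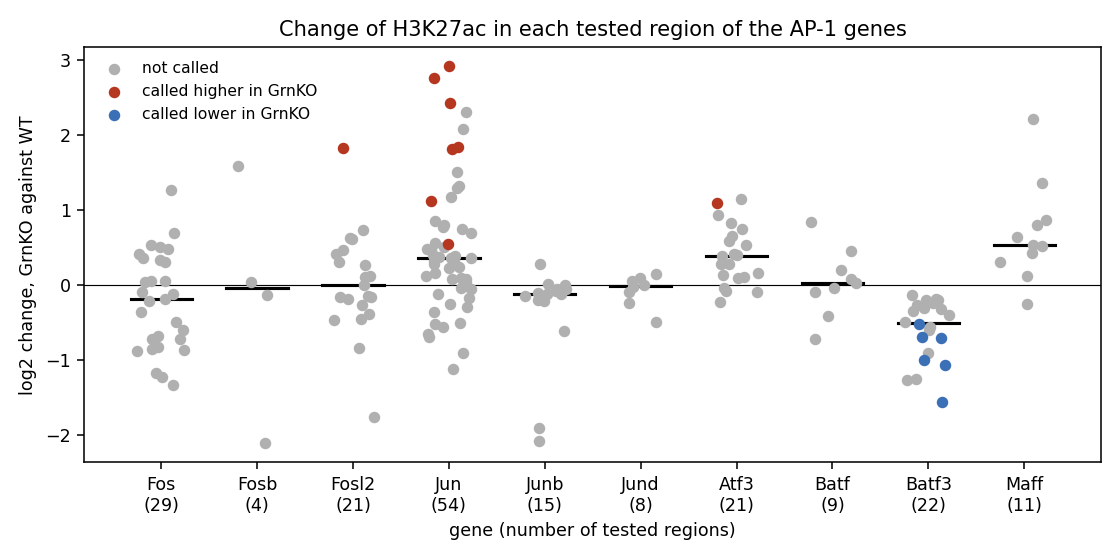
Log2 change of H3K27ac (GrnKO against WT, vertical axis) in each of the 194 tested regions, grouped by gene. Each point is 1 region, red called higher, blue called lower and grey not called, and the black bar is the median. The Batf3 points all lie below 0, and the red points of Jun reach 2.92.

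Summed over all regions of a gene, 2 of the 10 members were called, Jun higher and Batf3 lower. Over all 15380 genes tested, 14.5% were called, 8.59% higher and 5.88% lower. Maff also had an unadjusted p under 0.05. The median log2 change of the sums was -0.07 over the 10 members and -0.05 over all genes. Both Jun and Batf3 lost their call in the authors' scaling without TMM (limma adjusted p = 0.185 and 0.715), where the log2 changes were 0.58 and -0.22 and the median of all genes was 0.18.

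**Figure D2:**
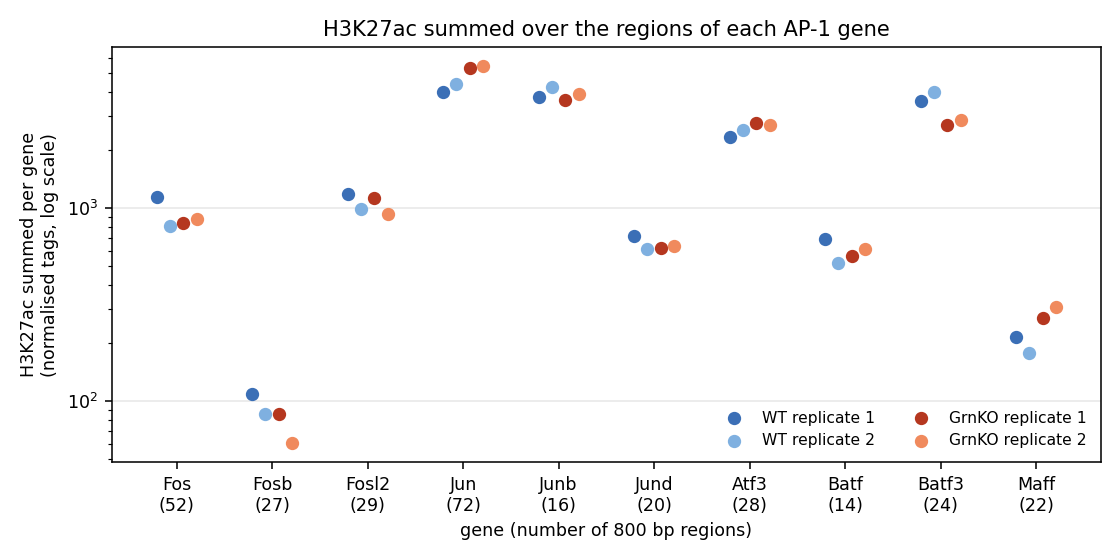
H3K27ac summed over the regions of each AP-1 gene (normalised tags, log scale), 1 point per library, WT in blue and GrnKO in red. The number of regions is given under each gene. The WT and GrnKO points separate at Jun, Batf3, Atf3 and Maff and overlap at the other 6 genes.

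Jun encodes c-JUN, the subunit that gives AP-1 much of its transactivation. Its regions carried 3992 and 4386 normalised tags in WT against 5274 and 5414 in GrnKO. Both GrnKO sums lay above both WT sums. Means were 4189 ± 279 (WT) and 5344 ± 99.0 (GrnKO; SD over 2 pools each), with a log2 change of 0.35 (SE 0.075, limma adjusted p = 0.00606). Of the 54 tested Jun regions, 40 had a positive and 14 a negative log2 change. Without GrnKO replicate 1 or GrnKO replicate 2 the Jun sum was no longer called (limma adjusted p = 0.0661 and 0.0935), with log2 changes of 0.37 and 0.33. It was called without WT replicate 1 (0.28, adjusted p = 0.000714) and without WT replicate 2 (0.42, adjusted p = 1.36e-07).

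The called regions of Jun lay far from the gene. The gene is on the minus strand of chromosome 4, and all 7 called regions fell in an intergenic cluster 139.7 to 166.0 kb upstream, at chr4:95191477-95218607 in mm10, the build that the submitters' processing notes name. Leaving out WT replicate 2 raised the number of called Jun regions to 17, of which 10 were in the cluster and 7 outside it. The cluster has 16 regions, all tested, and in 14 of them both GrnKO values exceeded both WT values. Its sum was 1088 and 1231 in the WT pools and 2039 and 2090 in the GrnKO pools, a ratio of means of 1.78. The cluster was bounded after the calls were seen, so these values and the lack of limma calls outside it are no separate support. Of the other 56 Jun regions 38 were tested and none was called by limma, edgeR or DESeq2, while 7 had an unadjusted p under 0.05. Their sums were 2903 and 3155 in WT, compared with 3236 and 3324 in GrnKO. The input over the cluster was 0 and 39.6 scaled tags in WT and 52.7 and 89.8 in GrnKO. With the input effect subtracted limma called none of the 7 regions, as it called 0 of all 80728, with 4 of the 54 Jun regions at an unadjusted p under 0.05. In that contrast the log2 change turned negative in those centred 142630 bp (-1.76) and 163158 bp upstream (-2.44) and went from 2.92 to 0.16 in the one centred 161002 bp upstream.

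Inside the cluster the steepest region was centred 161002 bp upstream. It held 21.9 and 14.9 in WT and 161 and 127 in the GrnKO pools, a log2 change of 2.92 (SE 0.30, limma adjusted p = 1.30e-05). In that region GrnKO replicate 2 had an input of 44.9 scaled tags and the other 3 inputs were 0. The region centred 160574 bp upstream overlaps it and rose from 37.5 and 18.1 to 181 and 185 (log2 change 2.76, limma adjusted p = 1.88e-05), with all 4 inputs at 0. Neighbouring called regions behaved alike. The one centred 157284 bp upstream went from 6.65 and 5.50 to 44.4 and 30.9 (log2 change 2.43, limma adjusted p = 0.00436). That centred 159747 bp upstream went from 26.6 and 20.95 to 93.3 and 78.4 (log2 change 1.81, limma adjusted p = 0.000934). The region centred 142630 bp upstream went from 22.7 and 27.5 to 100.4 and 83.7 (log2 change 1.84, limma adjusted p = 0.000652). These 5 regions were all low in WT. In 2 called regions the WT level was higher and the change smaller. The region centred 163158 bp upstream held 63.4 and 121 in WT against 205 and 179 in GrnKO (log2 change 1.12, limma adjusted p = 0.00729), and the one centred 164031 bp upstream held 186 and 229 against 279 and 329 (log2 change 0.55, limma adjusted p = 0.0400). Without GrnKO replicate 1 the 2 regions centred 161002 and 160574 bp upstream were the only ones called in the cluster. The region centred 164031 bp upstream also lost its call without WT replicate 1 (0.40, limma adjusted p = 0.0693), without GrnKO replicate 2 (0.43, limma adjusted p = 0.459) and in the authors' scaling (0.78, limma adjusted p = 0.0762). Without GrnKO replicate 2 the region centred 157284 bp upstream lost its call too (2.68, limma adjusted p = 0.0900). The region centred 143780 bp upstream was called without WT replicate 1 (1.40, limma adjusted p = 0.0157).

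The table assigns the cluster to Jun as the nearest start site, which does not show that it acts on Jun. In RefSeq GRCm38.p6 the cluster overlaps the long noncoding RNA genes Gm12708 and Gm32240. The next coding gene beyond it, Fggy, begins 338.9 kb farther on. With only regions within 50 kb of the start site the Jun sum had a log2 change of 0.10 and was not called (limma adjusted p = 0.609).

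Closer to the gene the calls depended on the WT pools. In the 13 regions within 3 kb of the Jun start, 0 were called by limma, edgeR or DESeq2, 1 had an unadjusted p under 0.05 (centred 2645 bp upstream, log2 change -0.51), 2 had both GrnKO values above both WT values and 3 below them, and the sums were 1453 and 1729 in the WT pools and 1718 and 1672 in the GrnKO pools. The highest region within 1000 bp, in the 5′ UTR and centred 476 bp into the gene, held 147 and 247 in WT, compared with 236 and 240 in GrnKO (log2 change 0.32, SE 0.20, limma adjusted p = 0.362). WT replicate 1 was the low one, and without it the log2 change was -0.05. Without WT replicate 2 it was 0.69 and called higher (limma adjusted p = 0.00342), as were the regions centred 39 and 1464 bp into the gene (0.55 and 0.83, limma adjusted p = 0.0415 and 0.0157). The highest region farther away, centred 1195 bp upstream, held 247, 288, 284 and 287 in the same order of pools. Another group of 13 regions 100.02 to 115.24 kb upstream also had 0 calls by limma, edgeR or DESeq2 and 1 unadjusted p under 0.05, with sums of 906 and 931 (WT) and 899 and 1030 (GrnKO). Its farthest region, centred 115243 bp upstream, was called higher without WT replicate 1 (2.38, limma adjusted p = 0.0291), and the one centred 110319 bp upstream without WT replicate 2 (0.63, limma adjusted p = 0.0497). At 53 to 56 kb upstream all 4 regions had both GrnKO values above both WT values, with sums of 216 and 216 against 327 and 293, but none was called by limma, edgeR or DESeq2 (limma adjusted p = 0.058 for the region with the smallest, 2 with an unadjusted p under 0.05). That region, centred 55217 bp upstream, was called in the authors' scaling (2.25, limma adjusted p = 0.0286) and without WT replicate 2 (3.08, limma adjusted p = 0.000259).

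**Figure D3:**
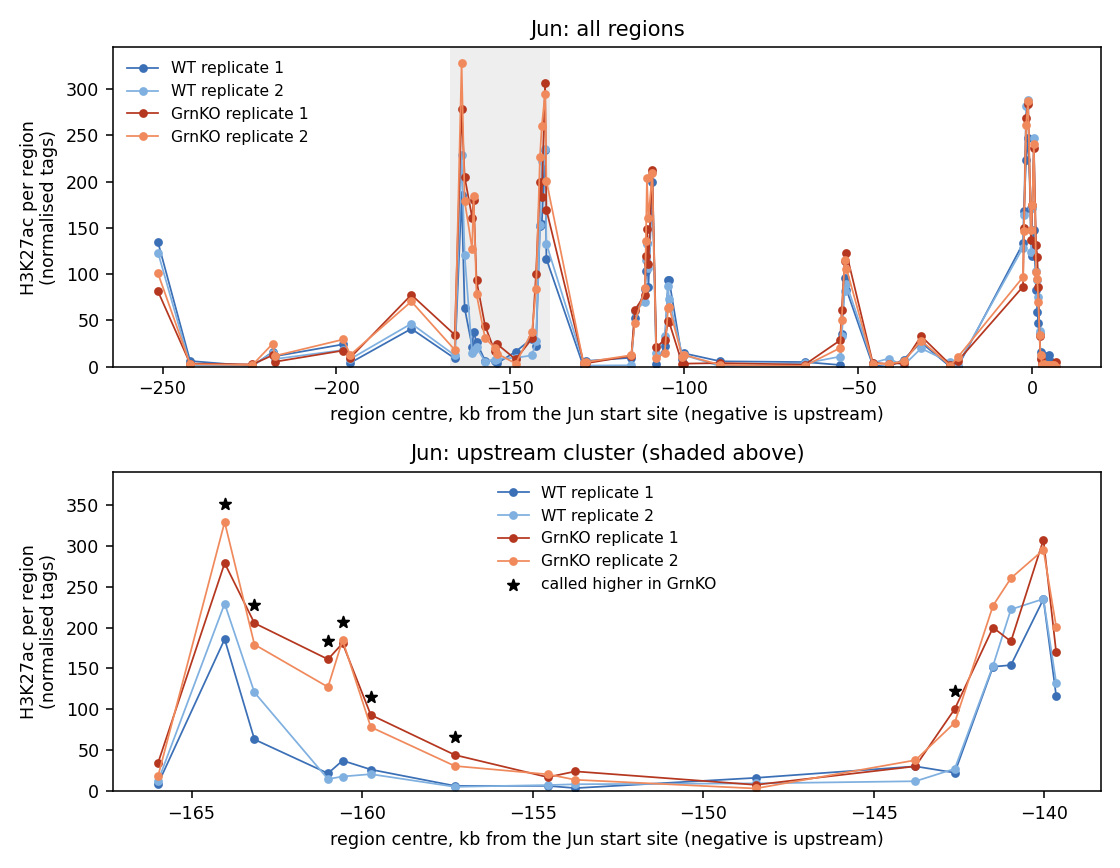
H3K27ac per region (normalised tags) against distance from the Jun start site in kb, 1 line per library. The upper panel shows all 72 regions and the lower panel the shaded cluster 139.7 to 166.0 kb upstream, with stars over the 7 regions called higher in GrnKO. The WT and GrnKO lines cross near the start site, where WT replicate 1 is the low line at 39 and 476 bp, and the GrnKO lines lie above the WT lines between about 157 and 164 kb upstream.

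Promoter sequence is shown for Jun and for Junb, the members with the highest H3K27ac within 1000 bp of a start among those without a call there. The Jun window, 250 bases before the RefSeq start (chr4:95052223-95052472, minus strand, GRCm38.p6), holds an AP-1-like site TGACATCA 45 bases before the start, in capitals. A region centred 39 bp into the gene covers the whole window and held 119.7 and 172 in WT against 174 and 175 in GrnKO (log2 change 0.28, limma adjusted p = 0.417). The region centred 327 bp upstream also covers it and held 172 and 124 against 137 and 148 (log2 change -0.04, limma adjusted p = 0.939).

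Jun promoter: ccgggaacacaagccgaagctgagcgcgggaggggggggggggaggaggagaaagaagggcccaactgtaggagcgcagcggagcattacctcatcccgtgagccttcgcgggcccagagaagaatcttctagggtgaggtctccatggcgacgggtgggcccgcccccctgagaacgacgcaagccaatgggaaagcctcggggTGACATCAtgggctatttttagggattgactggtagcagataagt

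Junb encodes JUNB, which in many settings restrains JUN. It had the highest H3K27ac per region of all members, and its 16 regions lie within 4328 bp of the start site. Its sums were 3735 and 4220 in the WT pools and 3637 and 3882 in the GrnKO pools, and the groups overlapped (log2 change -0.08, SE 0.083, limma adjusted p = 0.602). None of its 15 tested regions was called by limma, and 1 had an unadjusted p under 0.05. One region, centred 3468 bp downstream, was called lower without WT replicate 2 (-2.47, limma adjusted p = 0.0431). The region in its single exon centred 677 bp into the gene held 286 and 294 in WT, compared with 269 and 254 in GrnKO, both GrnKO values below both WT values (log2 change -0.15, limma adjusted p = 0.596). The strongest region, centred 3112 bp upstream, held 628 and 739 against 631 and 681 (log2 change -0.05, limma adjusted p = 0.829). The window below (chr8:84978749-84978998, minus strand) matched none of the motifs searched, and the region over it held 167 and 256 (WT) and 188 and 194 (GrnKO).

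Junb promoter: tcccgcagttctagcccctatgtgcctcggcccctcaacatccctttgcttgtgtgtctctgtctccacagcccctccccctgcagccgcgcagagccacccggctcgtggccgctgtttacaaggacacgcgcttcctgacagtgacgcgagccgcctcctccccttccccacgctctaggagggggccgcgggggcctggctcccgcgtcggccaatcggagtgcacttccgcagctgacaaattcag

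Jund encodes JUND, the JUN family member that most cells express without a stimulus. Its sums of 714 and 609 in WT against 623 and 634 in GrnKO overlapped (log2 change -0.07, SE 0.13, limma adjusted p = 0.791), and none of its 8 tested regions had an unadjusted p under 0.05. Its strongest region lies in the 3′ UTR, 2386 bp into the gene, and held 252 and 266 in the WT pools and 244 and 275 in the GrnKO pools (log2 change 0.0020, limma adjusted p = 0.996). The region centred 734 bp into the gene held 51.6 and 35.9 against 52.0 and 34.4. In both of these regions the pools of each genotype differed from each other by more than the genotype means did. For the sum (means of 662 in WT and 629 in GrnKO) this held in WT only.

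Fos encodes c-FOS, an immediate early gene product that binds DNA only as a dimer with a JUN protein. Its 52 regions, 29 of them tested, summed to 1136 and 801 in WT, compared with 839 and 881 in GrnKO (log2 change -0.15, SE 0.15, limma adjusted p = 0.573). WT replicate 1 was the high pool. In the 3 regions 58 to 60 kb downstream it held 303 against 139 in WT replicate 2 and 218 and 348 in the GrnKO pools, with an input of 0 in 3 libraries and 64.2 scaled tags in GrnKO replicate 1. In the 5 regions 49 to 51 kb downstream the WT replicate 1 sum was 181 against 46.1 to 67.8 in the other 3 pools, and the input of WT replicate 1 held 257 scaled tags against 0 to 1.04 in the other inputs. Without WT replicate 1 the log2 change of the Fos sum was 0.10, and without WT replicate 2 it was -0.40 and was called (limma adjusted p = 0.00697). None of the 29 regions was called by limma, and 3 had an unadjusted p under 0.05. Leaving out either WT pool gave calls in different places: without WT replicate 1, 2 regions were called higher and 1 lower, and without WT replicate 2, 6 were called lower, 4 of them 49 to 51 kb downstream.

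At the Fos start site the H3K27ac level was low. The promoter region centred 337 bp upstream held 44.6 and 29.1 (WT) and 22.1 and 10.8 (GrnKO). Both GrnKO values were below both WT values, and the difference was not called (log2 change -1.16, SE 0.44, limma adjusted p = 0.110). Without WT replicate 2 it was called (-1.46, limma adjusted p = 0.0228). The region centred 33 bp into the gene overlaps it and held 43.8 and 24.6 against 19.2 and 9.46. The highest Fos region farther away, intergenic and centred 59440 bp downstream, held 123 and 56.1 in WT against 115.97 and 158 in GrnKO (log2 change 0.69, limma adjusted p = 0.147). It was called higher without WT replicate 1, the pool with 123 (1.26, limma adjusted p = 6.73e-05). Batf starts 212.8 kb from Fos on the same chromosome. The regions assigned to them reached at most 60502 bp (Fos) and 39178 bp (Batf) from the start, and do not cover the whole interval.

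Fosb encodes FOSB, the source of the long-lived splice form known from chronic stimulation of neurons. It had the lowest H3K27ac of the members: 27 regions, 4 of them tested, summed to 109 and 85.1 in the WT pools and 86.0 and 60.3 in the GrnKO pools (log2 change -0.42, SE 0.28, limma adjusted p = 0.375). The input over these regions was 0 and 69.5 scaled tags in WT and 126 and 115 in GrnKO, above the H3K27ac sums of both GrnKO pools. The promoter region centred 314 bp upstream held 0 in both WT pools, which allows up to 1.94 and 1.63 scaled tags there, and 3.39 and 2.77 in GrnKO, and did not pass the filter. The highest region, 9239 bp downstream, held 14.9, 15.98, 15.3 and 12.9 in the order WT, WT, GrnKO, GrnKO.

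Fosl2 encodes FRA-2, a FOS family protein without the strong activation domain of c-FOS. Its sums were 1173 and 984 in WT, compared with 1125 and 929 in GrnKO, and the groups overlapped (log2 change -0.07, SE 0.13, limma adjusted p = 0.781). One of its 21 tested regions was called, and 3 had an unadjusted p under 0.05. That region lies 66482 bp upstream, at chr5:32069590-32070390, in intron 11 of 11 of Babam2, and held 25.4 and 20.95 in the WT pools and 114 and 63.0 in the GrnKO pools (log2 change 1.83, SE 0.34, limma adjusted p = 0.00179). Without GrnKO replicate 1, its higher GrnKO pool, that region was not called (1.41, limma adjusted p = 0.208). Nearer to the gene the log2 changes had both signs and none was called by limma, edgeR or DESeq2. The promoter region centred 701 bp upstream held 218 and 200.1 in WT against 146 and 158 in GrnKO (log2 change -0.46, SE 0.17, limma adjusted p = 0.107), and was called lower without WT replicate 2 (-0.52, limma adjusted p = 0.0445). The region centred 23749 bp upstream held 183 and 156 against 145 and 105 (log2 change -0.45, limma adjusted p = 0.186). In the other direction, the region centred 3132 bp into the gene held 16.4 and 22.5 against 36.5 and 29.1 (log2 change 0.73, limma adjusted p = 0.285).

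Atf3 encodes ATF3, a stress-induced factor that can repress inflammatory genes. Its 28 regions summed to 2331 and 2531 in the WT pools and 2760 and 2678 in the GrnKO pools. Both GrnKO sums were above both WT sums, and the sum was not called (log2 change 0.16, SE 0.085, limma adjusted p = 0.242). It was called without WT replicate 2 (0.22, limma adjusted p = 0.0455). Of the 21 tested regions, 17 had a positive log2 change.

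One Atf3 region was called, centred 865 bp into the gene in intron 1 of 3 (chr1:191182068-191182868). It held 40.3 and 46.9 in WT, compared with 123 and 71.7 in GrnKO, a log2 change of 1.10 (SE 0.29, limma adjusted p = 0.0219). Without GrnKO replicate 1, the higher pool, it was not called (0.71, limma adjusted p = 0.545). All 7 tested regions of intron 1, the called one among them, had a positive log2 change. With the called one counted, the 9 regions of that intron summed to 137 and 156 (WT) and 316 and 227 (GrnKO). In 6 of the 7 tested ones both GrnKO values exceeded both WT values, against 27% of all tested regions. The bulk of Atf3 acetylation lay 10 to 19 kb upstream, where 8 regions summed to 1957 and 2190 in WT against 2210 and 2197 in GrnKO, with 0 calls by limma, edgeR or DESeq2 and 1 unadjusted p under 0.05. One of these regions, centred 15956 bp upstream, was called higher without WT replicate 2 (0.88, limma adjusted p = 0.001002). The strongest of these, 18030 bp upstream, held 432 and 515 against 521 and 521 (log2 change 0.14, limma adjusted p = 0.537). The window before the Atf3 start (chr1:191183334-191183583, minus strand) is shown since Atf3 is one of the 2 members with a called region within 1000 bp. It holds the core of a cAMP response element (CRE), TGACGT read on the opposite strand as ACGTCA, 8 bases before the start. The region over the whole window held 59.4 and 34.6 in the WT pools and 52.0 and 58.8 in the GrnKO pools and was not called.

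Atf3 promoter: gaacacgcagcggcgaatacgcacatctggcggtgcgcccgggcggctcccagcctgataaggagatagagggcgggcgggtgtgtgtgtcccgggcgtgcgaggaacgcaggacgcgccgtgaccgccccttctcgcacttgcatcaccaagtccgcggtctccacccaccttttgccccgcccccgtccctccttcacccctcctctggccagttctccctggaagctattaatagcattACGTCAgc

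Batf encodes BATF, which pairs with JUN proteins and cooperates with IRF factors in lymphocytes and dendritic cells. Its sums of 686 and 518 in WT overlapped those of 565 and 612 in GrnKO (log2 change -0.02, SE 0.15, limma adjusted p = 0.950), and none of its 9 tested regions had an unadjusted p under 0.05. The promoter region centred 39 bp upstream held 21.1 and 36.9 (WT) and 35.9 and 29.1 (GrnKO). The strongest region, in intron 2 of 2, held 266 and 182 against 210 and 204.

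Batf3 encodes BATF3, the BATF relative known for the development of the classical dendritic cells that cross-present antigen. It was the member with the largest share of called regions, 6 of 22 tested (27.3%), and all were lower in GrnKO. That rank depended on the settings. Jun had the larger share in the authors' scaling (7 of 54 against 0 of 22) and with no filter (6 of 54 against 2 of 22). The Batf3 regions summed to 3564 and 3992 in WT against 2702 and 2852 in GrnKO, and both GrnKO sums lay below both WT sums. The mean fell from 3778 ± 303 to 2777 ± 106 (SD over 2 pools each), a log2 change of -0.44 (SE 0.084, limma adjusted p = 0.00313). All 22 tested regions had a negative log2 change, and in 17 of them both GrnKO values lay below both WT values. Without GrnKO replicate 1 the sum was no longer called (-0.40, limma adjusted p = 0.0625) and no region was called by limma, with 3 at an unadjusted p under 0.05. Without WT replicate 1 the log2 change was -0.52 (limma adjusted p = 8.24e-09) and 7 regions were called, and without WT replicate 2 it was -0.36 and 6 were, not all of them the same regions. Without GrnKO replicate 2 the sum was called (-0.48, limma adjusted p = 0.0185) with 1 region. In the authors' scaling 18 of the 22 regions stayed negative and 0 were called by limma, with 4 at an unadjusted p under 0.05.

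At Batf3 2 of the called regions lie at its promoter. The region centred 508 bp upstream (chr1:191097506-191098306) held 107 and 71.2 in the WT pools and 40.2 and 46.4 in the GrnKO pools (log2 change -1.001, SE 0.28, limma adjusted p = 0.0306). The overlapping region centred 64 bp upstream held 89.6 and 71.2 against 30.8 and 46.4 (log2 change -1.06, SE 0.30, limma adjusted p = 0.0297). Neither was called without WT replicate 1, the higher WT pool (-0.71 and -0.90, limma adjusted p = 0.113 and 0.0507). Summed within 1000 bp of the start the log2 change was -1.11 (SE 0.23, limma adjusted p = 0.00798), and over the regions farther away -0.40 (SE 0.089, limma adjusted p = 0.00850). The difference between these changes was not tested. The window before the start (chr1:191098164-191098413, plus strand) lies within the second of these regions. It has 76% G and C and matched none of the motifs searched.

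Batf3 promoter: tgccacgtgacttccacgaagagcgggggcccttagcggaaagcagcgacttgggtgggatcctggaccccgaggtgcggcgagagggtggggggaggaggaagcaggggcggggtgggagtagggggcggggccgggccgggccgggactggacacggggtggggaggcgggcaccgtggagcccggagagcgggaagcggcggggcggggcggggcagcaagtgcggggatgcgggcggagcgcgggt

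The other 4 called Batf3 regions lie 16.7 to 21.1 kb downstream of the start, past the end of the gene. The strongest, centred 17366 bp downstream, held 393 and 383 in WT, compared with 222 and 260 in GrnKO (log2 change -0.69, SE 0.14, limma adjusted p = 0.00497). Regions overlapping it on each side, centred at 16662 and 17684 bp, had log2 changes of -0.52 and -0.70 (limma adjusted p = 0.0487 and 0.0192). The last, centred at 21108 bp, held 36.4 and 32.5 against 7.64 and 15.7 (log2 change -1.56, limma adjusted p = 0.0417). Of these 4 edgeR called 2 and DESeq2 3, and the region at 16662 bp lost its call without WT replicate 2 (-0.37, limma adjusted p = 0.105). Together the 5 regions at 16 to 22 kb summed to 972 and 1061 (WT) and 590 and 697 (GrnKO), a ratio of means of 0.633. The strongest Batf3 region, centred 12172 bp downstream, was not called: it held 412 and 472 in WT against 370 and 365 in GrnKO (log2 change -0.26, limma adjusted p = 0.230). It was called without WT replicate 1 (-0.36, limma adjusted p = 0.0485). The 6 regions 11 to 13 kb upstream summed to 1027 and 1130 against 835 and 814, with 0 calls by limma, edgeR or DESeq2 and 3 unadjusted p under 0.05. The starts of Batf3 and Atf3 lie 84.9 kb apart on chromosome 1. Between the 2 genes lie the coding gene Fam71a and the long noncoding RNA genes Gm46178, Gm31640 and Gm31696. The sums of the pair moved in opposite directions, Batf3 with a call and Atf3 without one.

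**Figure D4:**
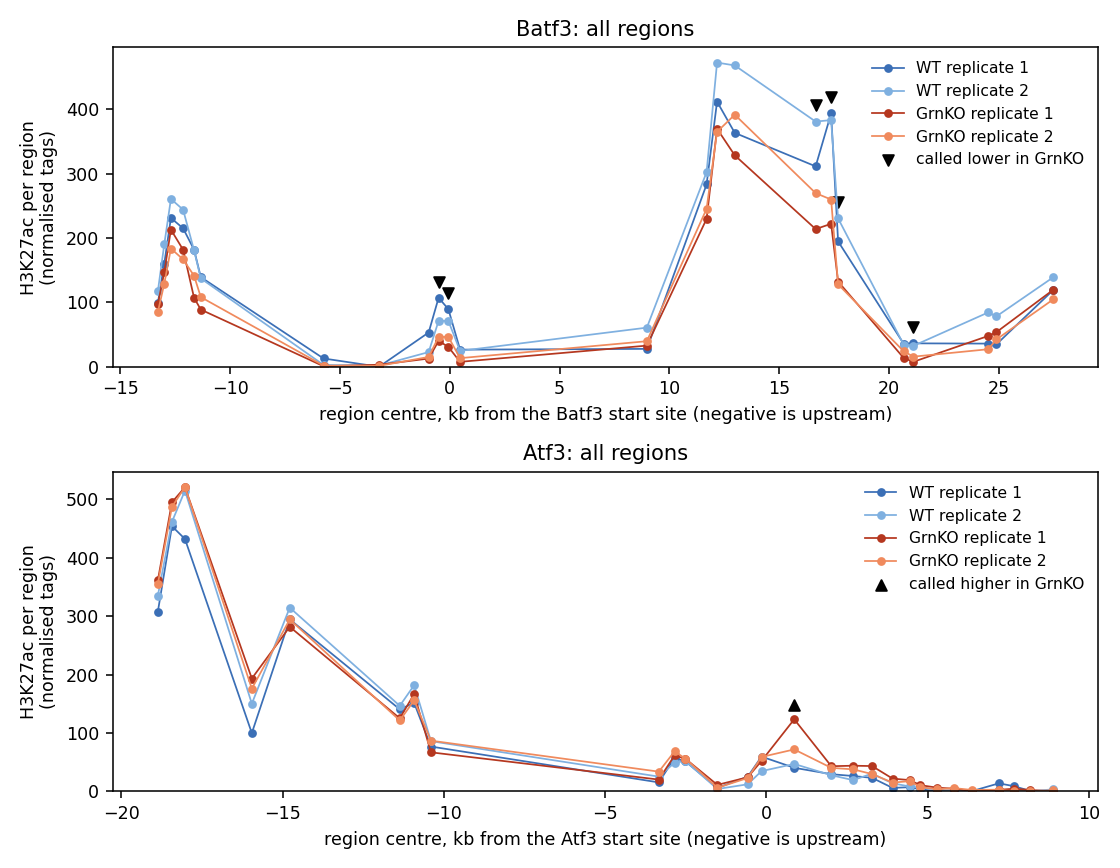
H3K27ac per region (normalised tags) against distance in kb from the Batf3 start site (upper panel) and from the Atf3 start site (lower panel), 1 line per library. Downward triangles mark the 6 regions called lower at Batf3 and the upward triangle the region called higher at Atf3. The GrnKO lines lie below the WT lines at 16.7 to 17.7 kb downstream of Batf3, and the 4 pools sum to between 1957 and 2210 over the regions 10 to 19 kb upstream of Atf3.

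Counts from 2 marker lists stand beside the Batf3 result. Of 8 microglial marker genes 6 were called lower, among them Sall1 (log2 change -0.52), Cx3cr1 (-0.41) and Csf1r (-0.36), and their sum went from 50479 and 55219 in WT to 41078 and 43566 in GrnKO. Of 8 markers of classical dendritic cells, a list written after the Batf3 values were seen, 7 were tested and 3 were called lower, Ccr7 (-1.21), Flt3 (-0.54) and Xcr1 (-0.47). Their sum was 6168 and 6632 in the WT pools and 5251 and 5776 in the GrnKO pools, Clec9a and Wdfy4 were not called, and Cd209a was near 0. The part of either list in the Batf3 result was not tested.

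Maff encodes MAFF, a small MAF protein that represses as a homodimer and activates with NRF partners. Its 22 regions, 11 of them tested, were low and summed to 215 and 178 in WT, compared with 270 and 305 in GrnKO. Both GrnKO sums were above both WT sums, with a log2 change of 0.55 (SE 0.18, limma adjusted p = 0.0554), and the sum was not called. Over the alternatives tried, the adjusted p ranged from 0.00293 to 0.912. The lowest was without WT replicate 1, where the sum was called (0.69), and it was also called in the authors' scaling (0.78, limma adjusted p = 0.0215). The input over Maff was 77.2 and 72.2 scaled tags in WT and 82.5 and 1.02 in GrnKO. No single region was called by limma, edgeR or DESeq2, 10 of 11 had a positive log2 change, and 3 had an unadjusted p under 0.05. Without WT replicate 1, 3 regions were called higher, and in the authors' scaling 1. The promoter region centred 91 bp past its start held 21.9 and 23.05 in the WT pools and 44.4 and 39.2 in the GrnKO pools (log2 change 0.86, limma adjusted p = 0.144). The strongest region, 6363 bp into the gene in intron 1 of 2, held 57.1 and 39.5 against 69.0 and 101.7 (log2 change 0.81, limma adjusted p = 0.0891). It was called without WT replicate 1 (1.07, limma adjusted p = 0.00562) and in the authors' scaling (1.03, limma adjusted p = 0.0405).

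Levels per region of equal width can be set side by side. At the highest region within 1000 bp of the start, the mean over the 4 libraries ran from Junb (276 normalised tags) over Jun (218), Fosl2 (180), Atf3 (70.6), Batf3 (66.2), Jund (43.5), Maff (32.1), Batf (30.8) and Fos (26.6) to Fosb (1.54). The library ranges were apart between Junb and Jun, between Fosl2 and Atf3 and between Fos and Fosb, and overlapped between all other neighbours in that order. The order was not the same in each genotype. In WT the mean of Batf3 (89.2) was above that of Atf3 (43.6) and the mean of Fosl2 (209) above that of Jun (197). In GrnKO Atf3 (97.5) was above Batf3 (43.3) and Jun (238) above Fosl2 (152). The WT pools of Jun (147 and 247) lay on both sides of those of Fosl2 (218 and 200.1), so their order in WT depends on the pool. Averaged over all its regions, Junb was again the highest (242 per region), followed by Batf3 (137), Atf3 (92.0) and Jun (66.2), and Fosb was the lowest (3.15). Batf and Fosl2, and Fosl2 and Jund, overlapped in that order, and the other neighbours did not.

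All 10 members matched the RefSeq promoter table (GRCm38.p6), with 12 windows of 250 bases before a start, 3 of them for Maff. The AP-1 site TGANTCA was in none of them, against 6.75% of 32851 promoter windows of the same length, with both strands searched. The full CRE, TGACGTCA, was in 1 Maff window, 29 bases before the start (1.55% of all windows). Its core TGACGT, which the full element contains, was in windows of Atf3, Batf, Fos and Maff (6.47%). TGACATCA was in windows of Jun and Maff, in both 45 bases before the start (2.93%). The letters CATATTAGG, part of a serum response element, were in none (0.107%). TGACATCA and the CRE core were added after the sequences were seen. A match describes the letters in these windows and is not a measured binding site.

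Genes that act around AP-1 were counted from 3 lists. Over all genes tested 8.59% were called higher and 5.88% lower, with a median log2 change of -0.05, and the counts of these lists and of the marker lists stand against those shares. Of 31 other basic leucine zipper factors 30 were tested, and 3 were called higher and 2 lower, with a median log2 change of 0.0033. The higher ones were Nfe2l2, the oxidative stress regulator NRF2, Ddit3, the stress factor CHOP (log2 change 0.55), and the circadian factor Dbp (0.76). Nfe2l2 held 2865 and 2823 in WT and 3560 and 3550 in GrnKO (log2 change 0.32, limma adjusted p = 0.0125). Dbp held 401 and 484 in WT against 554 and 1004 in GrnKO, so its rise was larger in GrnKO replicate 2. No fit without a GrnKO pool was read for these lists. Cebpd (-0.38) and Hlf (-0.51) were lower. Of 31 genes of the MAP kinase pathway 2 were called higher and 4 lower, with a median of -0.11. Map2k6, an activator of p38 (0.67), and Map3k8 (0.32) were higher, and Mapk8, which encodes the JUN kinase JNK1 (-0.88), Map3k7 (-0.57), Rps6ka1 (-0.32) and Dusp6 (-0.22) were lower. Mapk8 itself was low, with 179 and 126 in WT against 80.3 and 82.6 in GrnKO. Its call was lost without WT replicate 1 (-0.62, limma adjusted p = 0.0890) and in the authors' scaling (-0.65, limma adjusted p = 0.145).

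Of 20 other immediate early genes 19 were tested, 2 were called higher and 4 lower, and the median was -0.15. Gadd45b, a stress-induced activator of p38 signalling, rose from 156 and 118 to 585 and 567 (log2 change 2.08), the largest change in the 3 lists, and Ier3 rose by 0.69. Klf2 (-0.65), Egr3 (-0.55), Btg2 (-0.46) and Rhob (-0.23) were lower. Both lists, the AP-1 genes and the other immediate early genes, thus had calls in both directions. In the authors' scaling no gene of these 3 lists was called lower, and 4, 2 and 2 were called higher, with Nfe2l2 and Map3k8 no longer among them (limma adjusted p = 0.185 and 0.135). Without WT replicate 1 the calls were 5 higher and 4 lower, 5 and 3, and 3 and 7.

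**Figure D5:**
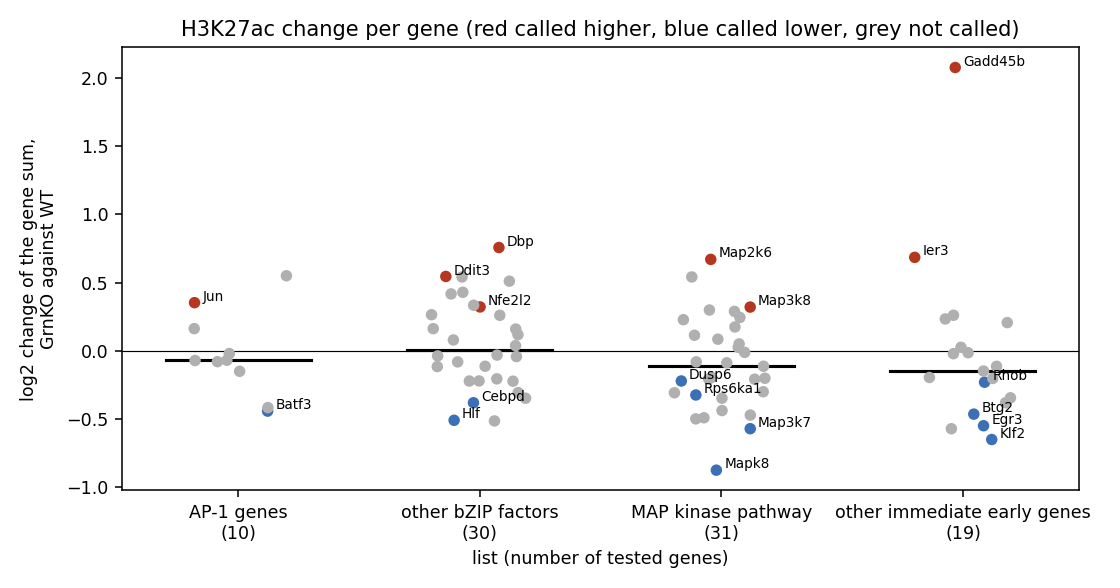
Log2 change of the summed H3K27ac per gene (GrnKO against WT) for the 10 AP-1 genes and 3 lists of genes around them, 1 point per tested gene. Called genes are named, red higher and blue lower, grey points were not called, and the black bar is the list's median. Every median lies within 0.15 of 0, and Gadd45b stands highest at 2.08.

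Markers of other cells were read from the same sums. The gene of PU.1, Spi1, held 5291 and 5855 in WT and 5269 and 5330 in the GrnKO pools. Olig2 was low (16.1 and 11.8 in WT, 11.02 and 9.23 in GrnKO), as was Rbfox3, the gene of NEUN (25.4 and 33.8 in WT, 15.3 and 17.8 in GrnKO). None of 6 border macrophage markers was called by limma, 1 had an unadjusted p under 0.05, and their sum was 1066 to 1091 in WT and 1121 to 1146 in GrnKO. Of 7 markers of monocytes and neutrophils 4 were tested, S100a8 was called higher and Ccr2 lower, and the sum went from 612 to 622 in WT to 396 to 491 in GrnKO. The lymphocyte gene Ms4a1 rose (219 and 197 to 609 and 463), 1 of 2 lymphocyte genes tested of 5 listed, and the sum of that list was 219 to 261 in WT and 484 to 655 in GrnKO. Of 5 neuronal genes 3 were tested and Syt1 was lower, with sums of 219 to 272 in WT and 149 to 178 in GrnKO. Of 5 oligodendrocyte genes 3 were tested, and Mbp and Mog went in opposite directions (log2 change 0.47 and -1.30), with sums of 1977 to 1994 and 2498 to 2642. Both tested astrocyte genes of 4 were uncalled by limma, and neither had an unadjusted p under 0.05 (sums of 3414 to 3466 and 3145 to 3199). The endothelial gene Flt1 rose (log2 change 0.95), 1 of 3 tested, with sums of 805 to 886 and 1207 to 1299. The part of these markers in the Jun and Batf3 results was not tested.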

How the data were processed

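The deposited table gives a signal per region: per the file headers, the authors counted tags in regions 800 bp wide and scaled each library to 10000000 tags. Bowtie2, HOMER, DESeq2 and mm10 are named in the submitters' processing notes, and the role and version of each tool are not given in the sources used here. Read ends, 2 per tag, could be recovered as whole numbers for 100% of values. The 8 value columns were matched to samples by title. Values were divided by TMM factors (edgeR 4.0.16) computed from the regions. Regions passed filterByExpr by genotype with a minimum of 10 tags. limma 3.58.1 (R 4.3.3; lmFit, eBayes with trend) was fitted with genotype as the only term to log2(value + 1) of the 4 H3K27ac libraries, for 80728 regions and for sums of 15380 genes. All p-values are two-sided and Benjamini-Hochberg adjusted over all regions or genes. Overlapping regions share tags, so a gene sum counts such tags more than once. Inputs were used as background only.

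The members, lists and tests were chosen with earlier results of these data known. Named for each member were the highest region within 1000 bp of the start, the highest farther away and every called region, and up to 3 called genes per direction from each list. Dusp6, Rhob, Ms4a1, the marker genes, the blocks of neighbouring regions, regions called only in a fit other than the one described, and 1 uncalled Fosl2 region, were named after their values were seen. Fits were tested on simulated tags. Alternatives were edgeR, DESeq2 1.42.0, the authors' scaling, other filters and a pseudocount of 5, library weights, a replicate block, each pool left out, subtraction of the input effect, other sets of regions and TMM factors from gene sums, the last added after the data were seen. Same-numbered pools come from different mice.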

Additional observations from a re-analysis of the deposited data

How the results depend on the processing

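Over 717 comparisons of a value with an alternative, 535 kept their direction and side of the threshold (or stayed within 1.5 times for a count), 70 lost a call, 18 gained one, 51 counts moved further and 43 values changed sign. The cause of these shifts was not tested. With only 2 pools per genotype, an uncalled member is not shown to be equal between genotypes. Of 15 called member regions (9 higher, 6 lower), the lower ones numbered 0 in the authors' scaling, 2 with no filter, 2 among non-overlapping regions and 3 at a change of at least 2-fold. At that 2-fold limit 0 genes were called, 0 higher and 0 lower, of 2 genes (1 and 1).

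Leaving out 1 pool gave 2 to 34 called member regions (2 to 20 higher and 0 to 14 lower) and 0 to 4 called genes (0 to 2 higher and 0 to 2 lower), while 5.04% to 24.2% of all genes were called in the same 4 fits. With the input effect subtracted, limma called 0 member regions (0 higher, 0 lower) and 0 member genes (0 higher, 0 lower), and 0 of all 80728 regions. At an unadjusted p under 0.05 it gave 8 member regions and 0 member genes. Of the input values of member regions, 70.0% were 0.

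The authors' scaling called 1 gene (0 lower), Maff, and neither Jun nor Batf3, and array weights, DESeq2, non-overlapping regions and TMM from gene sums each gave 2 higher, Jun and Maff. Regions within 1000 bp only, and within 50000 bp only, gave 1 gene each (0 higher), Batf3.

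Same-numbered pools deviated together with a correlation of 0.0344, so the numbers were not taken as pairs. With the replicate block, 14 member regions were higher and 8 lower, and 2 genes higher and 1 lower, against 14.1% of all regions and 18.6% of all genes called. Regions gained were Fos at 59440 bp (adjusted p = 0.0193), Maff at 6363 bp (0.0341), Jun at -55217 bp (0.0116) and -139655 bp (0.0286), Atf3 at -15956 bp (0.0226) and Batf3 at -961 bp (0.0402) and -11644 bp (0.0341).

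In the authors' scaling the sums of Fos (0.076), Fosl2 (0.16), Junb (0.15), Jund (0.16) and Batf (0.21) turned positive, as did the regions of Fosb at 9239 bp (0.086), Junb at 677 bp (0.078) and -3112 bp (0.17), Jund at 734 bp (0.20) and Batf at 18674 bp (0.14). With the input effect subtracted the sums of Fos (1.42) and Jund (1.72) turned positive and that of Atf3 negative (-1.18). The same contrast turned regions of Fos at 59440 bp (-1.69), Jun at -142630 bp (-1.76) and -163158 bp (-2.44), Atf3 at -18030 bp (-2.19), Batf at -39 bp (-0.31) and Maff at 6363 bp (-0.62) negative. It turned regions of Fosl2 at -23749 bp (1.5002) and of Batf3 at 16662 bp (1.21) and 21108 bp (0.69) positive. For the Batf sum, DESeq2 gave 0.0034, regions within 1000 bp 0.33 and TMM from gene sums 0.016, and for the Jund region at 2386 bp DESeq2 gave -0.0013.

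Leaving out 1 pool reversed values that ran from -0.15 (the Fos sum) to 0.32 (the Jun region at 476 bp) with all pools. Over these 4 fits the sums ranged from -0.40 to 0.10 for Fos, from -0.21 to 0.067 for Fosl2, from -0.17 to 0.011 for Junb, from -0.18 to 0.045 for Jund and from -0.22 to 0.18 for Batf. Regions ranged from -0.051 to 0.69 for Jun at 476 bp, from -0.013 to 0.21 for Jun at -1195 bp, from -0.17 to 0.066 for Junb at -3112 bp, from -0.32 to 0.27 for Jund at 734 bp, from -0.083 to 0.087 for Jund at 2386 bp, from -0.19 to 0.59 for Batf at -39 bp and from -0.36 to 0.19 for Batf at 18674 bp. The reversals came without WT replicate 1 for Fos, Fosl2, Jund, Batf and Jun, without WT replicate 2 for Junb, and without a GrnKO replicate for some of Fosl2, Junb, Jund and Batf. For the lists, the authors' scaling left 0 lower genes in each of the 3, and without WT replicate 1 the factors had 5 higher and 4 lower, the kinase pathway 5 higher and the immediate early genes 7 lower.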
